A study of Yarrowia lipolytica with 9 samples.

Results

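The comparison set the 3 libraries of *Yarrowia lipolytica* grown at pH 4.0 against the midpoint of the 2 pH extremes, pH 2.0 and pH 6.0, with 3 libraries each and 9 in all. For every gene the midpoint was the average of the pH 2.0 mean and the pH 6.0 mean on a log2(CPM + 1) scale, where CPM stands for counts per 1e+06 reads. The departure of a gene was its pH 4.0 mean minus that midpoint, so a gene that changed by the same log2 amount over both pH steps had a departure of 0. All groups were the wild-type strain W29 in a glucose medium low in ammonium, held at 1 fixed pH and taken at hour 50, and they differed by the labels in medium pH alone. Per the labels, the bioreactors were run in triplicate. All p-values given for genes come from limma with Benjamini-Hochberg adjustment, and a gene was called where the adjusted p was under 0.05. Of 6170 rows in the deposited table, 6165 could be tested, and 3108 of these (50.4%) departed from the midpoint.

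*Y. lipolytica* is a yeast that stores oil and secretes citric acid when sugar is plentiful and nitrogen runs short. Citrate leaves the mitochondrion, and is either exported or cleaved to the acetyl-CoA from which fatty acids are built. Fatty acids are joined to glycerol phosphate and stored as triacylglycerol, or broken down by beta-oxidation in the peroxisome. The transcription factor Rim101 acts in the response to ambient pH in this and other fungi. The table does not pair its identifiers with names, so the roles given here are background from published locus-tag assignments, and they are given for the loci of 16 pathway lists.

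Depth was 12974822 to 17701766 recovered reads per library. Column sums of the scaled values lay between 904216 and 910806 CPM at pH 2.0, between 1010486 and 1094635 at pH 4.0, and between 1051586 and 1056851 at pH 6.0. The median SD between replicates was 0.106 at pH 2.0, 0.133 at pH 4.0 and 0.0899 at pH 6.0 on the log2 scale. Replicates of a pH correlated at r = 0.9861 to 0.9976 across genes, which are not independent replicates, and none was a copy of another. Without pH 4.0 replicate A, 2282 genes were called, the fewest in any fit that left out a library.

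Genes fell into 6 patterns. Of the 3108 called genes, 1499 stood above the midpoint (24.3% of all genes tested) and 1609 below it (26.1%). A departure did not by itself make pH 4.0 the highest or lowest condition. In 551 called genes all 3 pH 4.0 libraries lay above the other 6 (8.94% of all tested), and in 603 all 3 lay below them (9.78%). In the remaining called genes the pH 4.0 libraries were not all outside the other 6, and each gene was grouped by the extreme nearer to its pH 4.0 mean, which could lie between the extremes or past one of them. In 592 it was near a higher pH 6.0 level and in 356 near a higher pH 2.0 level, while in 394 it was near a lower pH 2.0 level and in 612 near a lower pH 6.0 level. Most departures were small: the median absolute departure of called genes was 0.409 on the log2 scale, and 167 genes (2.71%) were called with a departure of at least 1, of which 55 were above (0.892%) and 112 below (1.82%).

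**Figure D1:**
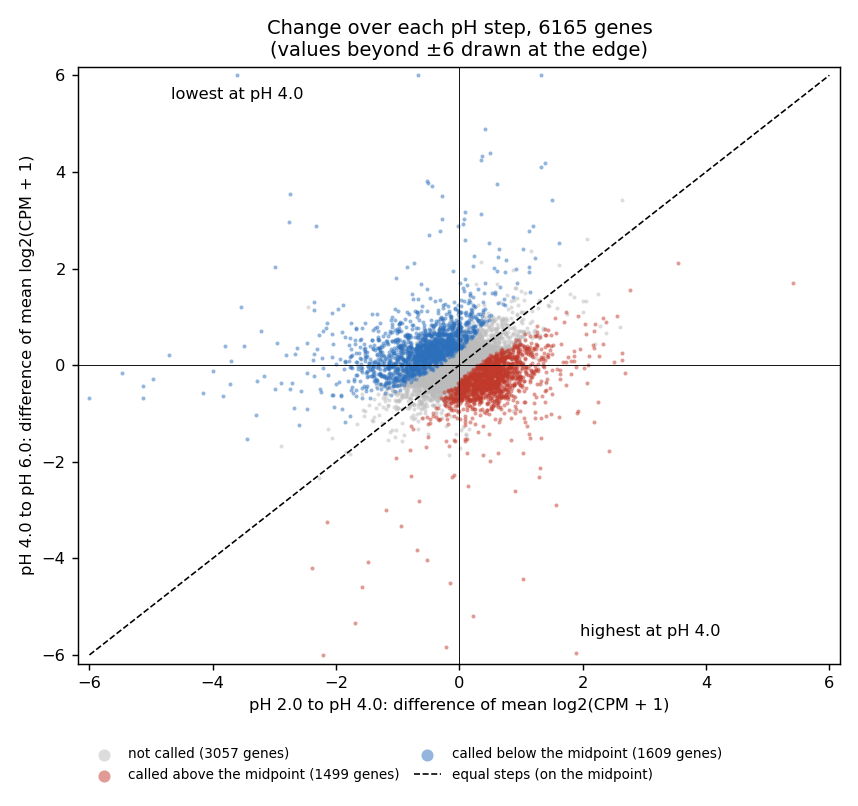
Each point is 1 of 6165 genes, with its log2 difference from pH 2.0 to pH 4.0 on the x axis and from pH 4.0 to pH 6.0 on the y axis, and the dashed line marks equal steps. The 1499 genes called above the midpoint lie below the line and the 1609 called below it lie above the line, while genes in the lower right quadrant were highest and those in the upper left lowest at pH 4.0.

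The split between above and below depended on scaling. Scaling the libraries to equal column totals moved the median departure of all genes from -0.02 to -0.11, and then 1001 genes were called above and 2074 below. Genes above the midpoint made up 48.2% of the calls under the deposited scaling, 32.6% under equal totals and 53.0% under quantile normalization. A described locus whose call changed with scaling is therefore given with its departure under the scaling that changed it. Such changes also occurred for departures larger than this shift.

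Among genes that differed widely between the extremes, those that were lower at pH 6.0 had covered most of their fall by pH 4.0. Single steps were called for 63.4% of genes from pH 2.0 to pH 4.0 and for 51.5% from pH 4.0 to pH 6.0, and the extremes differed for 73% of genes. The 1298 genes called between pH 2.0 and pH 6.0 with a difference of at least 1 on the log2 scale (21.1% of all tested) were placed on a scale on which 0 is the pH 2.0 level, 1 the pH 6.0 level and 0.5 the midpoint. For the 703 genes lower at pH 6.0 the median position of pH 4.0 was 0.703 (quartiles 0.487 and 0.891), and 73.5% were past the midpoint. For the 595 genes higher at pH 6.0 the median was 0.556 (quartiles 0.327 and 0.749), and 56.3% were past it. Among the falling genes 327 (46.5%) were called below the midpoint and 73 (10.4%) above it. Among the rising genes 193 (32.4%) were called above and 138 (23.2%) below. The contrast of the 2 extremes is orthogonal to the departure in this balanced design, so choosing genes by the first does not fix the second. On a linear CPM scale the median positions were 0.806 for falling and 0.411 for rising genes. Leaving out each library kept the median between 0.668 and 0.745 for falling genes and between 0.515 and 0.587 for rising ones. Under equal totals the medians were 0.738 and 0.491, and under quantile normalization 0.652 and 0.572. Whether the positions of the falling and rising genes differ was not tested.

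**Figure D2:**
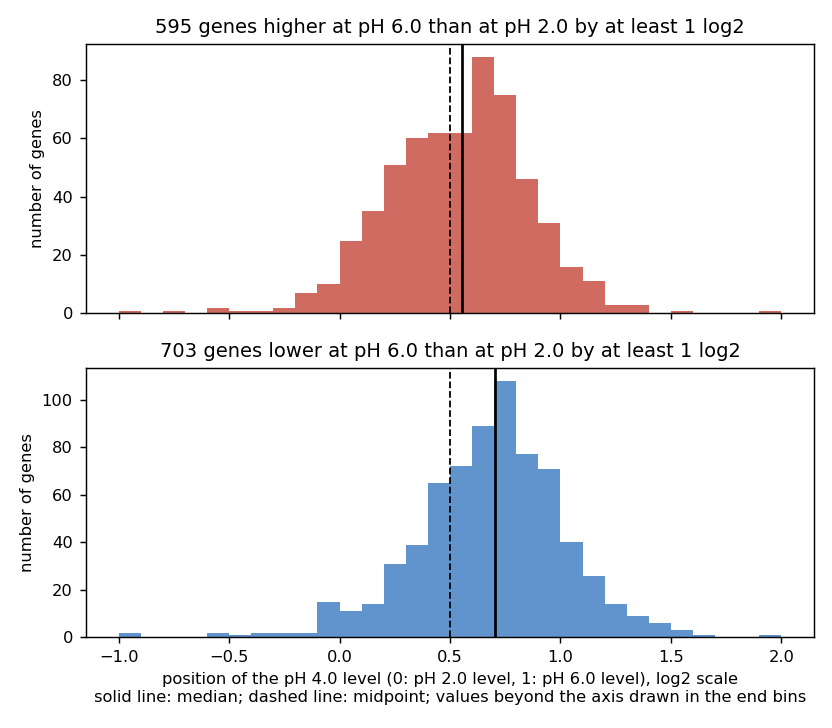
Histograms of the position of the pH 4.0 level between the pH 2.0 level (0) and the pH 6.0 level (1), for the 595 genes higher and the 703 genes lower at pH 6.0, with the number of genes on the y axis. The median (solid line) is 0.556 in the upper panel and 0.703 in the lower, against a midpoint (dashed line) of 0.5.

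The largest departures among loci outside the lists, which have no description here, took several of these forms. YALI0F13959g was at 87.7, 90.8 and 186 CPM at pH 2.0, at 414, 490 and 375 at pH 4.0, and at 6.54, 7.08 and 4.31 at pH 6.0. Its pH 4.0 libraries were all above the other 6, 15.1-fold over the midpoint (log2 3.92, SE 0.23, adjusted p = 3.10e-06). YALI0D19338g was at 3632, 3378 and 2608 CPM at pH 2.0, at 646, 617 and 794 at pH 4.0, and at 1.72, 1.19 and 1.10 at pH 6.0. It fell over both steps, but the second fall was the larger one on the log2 scale, so pH 4.0 stood above the log midpoint (log2 2.99, SE 0.13, adjusted p = 4.21e-07). On a linear scale the same gene was below the midpoint (-0.71 in units of its mean over the 9 libraries, adjusted p = 0.00639), and most of its CPM were lost in the first step.

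In the other direction YALI0E22286g was at 2.45, 3.80 and 3.15 CPM at pH 2.0, at 1.86, 1.46 and 1.402 at pH 4.0, and at 313, 345 and 737 at pH 6.0. The pH 4.0 libraries were all below the other 6, and the step to pH 6.0 made up nearly all of the departure (log2 departure -4.03, SE 0.24, adjusted p = 3.10e-06). YALI0C23254g was at 567, 1297 and 425 CPM at pH 2.0, at 153, 148 and 6.46 at pH 4.0, and at 8144, 8406 and 5634 at pH 6.0. All its pH 4.0 libraries were below the other 6 (log2 -5.32, SE 0.83, adjusted p = 8.40e-04), but they differed widely among themselves, and without pH 4.0 replicate C the departure was -3.88.

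The 2 listed enzymes that carry electrons outside the proton-pumping chain had already reached, or nearly reached, their pH 6.0 level at pH 4.0. The alternative oxidase YALI0D09933g passes electrons from ubiquinol straight to oxygen. It was at 472, 952 and 620 CPM at pH 2.0, at 2913, 2022 and 2434 at pH 4.0, and at 2393, 2239 and 2429 at pH 6.0. The pH 4.0 and pH 6.0 libraries overlapped and all were above those of pH 2.0, which put pH 4.0 at 1.96-fold over the midpoint (log2 0.97, SE 0.19, adjusted p = 0.00211). The external NADH dehydrogenase YALI0F25135g, which oxidizes cytosolic NADH at the inner mitochondrial membrane, was at 260, 334 and 276 CPM at pH 2.0, at 844, 811 and 808 at pH 4.0, and at 940, 926 and 1029 at pH 6.0. Its groups did not overlap, and the pH 4.0 level lay 0.867 of the way to the pH 6.0 level (log2 departure 0.64, SE 0.08, adjusted p = 3.49e-04).

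**Figure D3:**
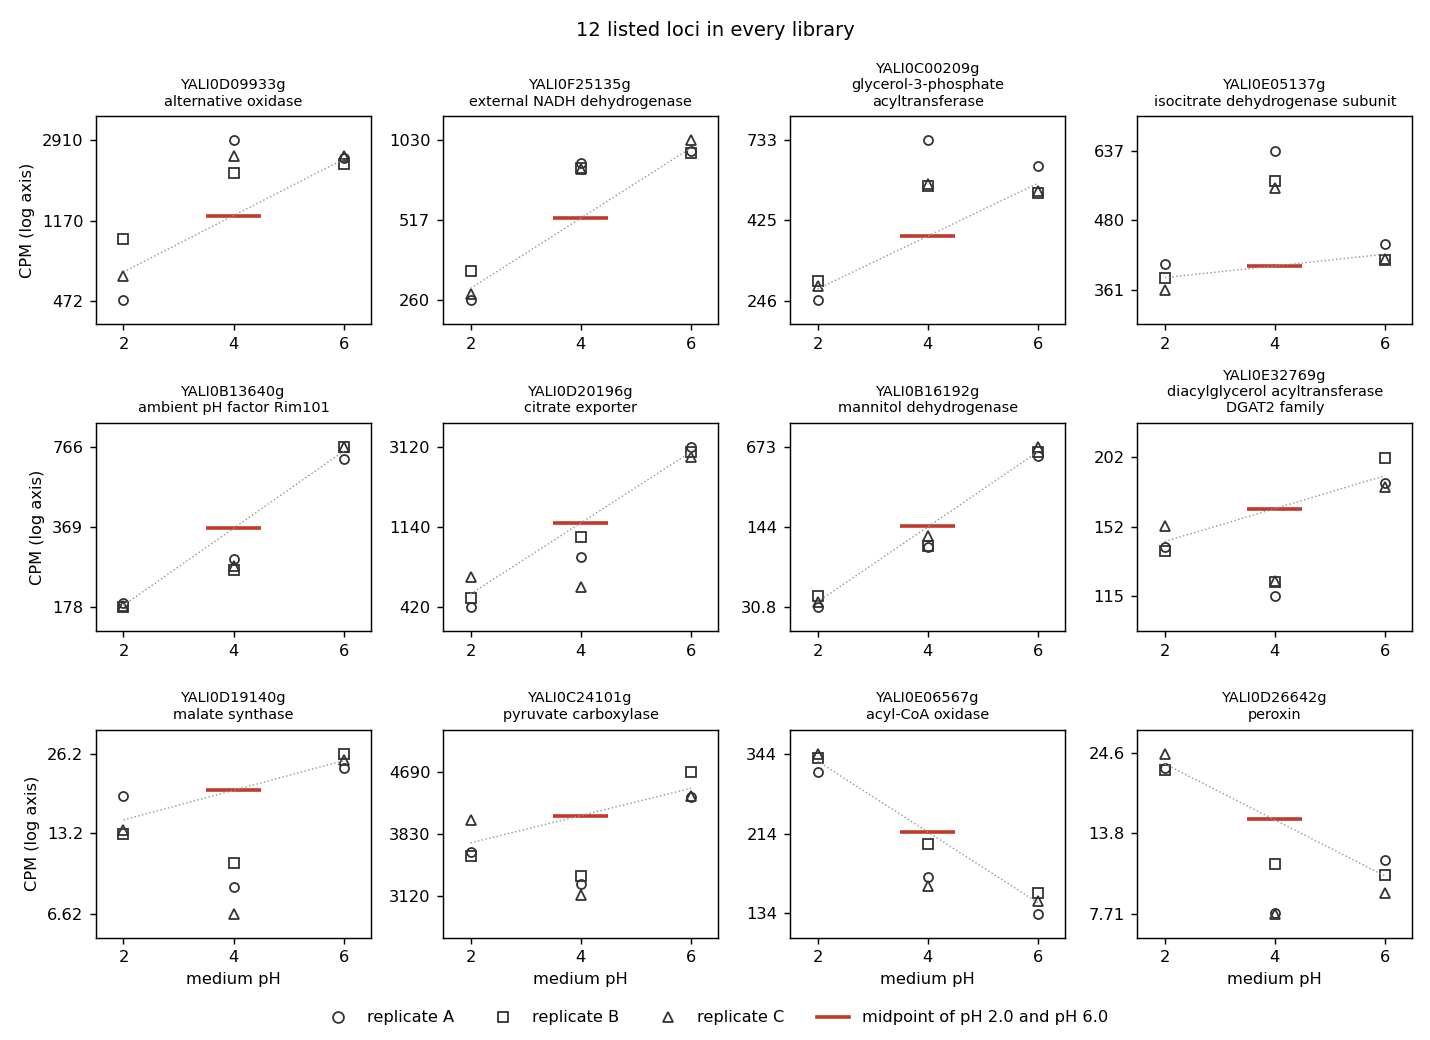
CPM on a log axis against medium pH for 12 listed loci, with a marker for each of 9 libraries, the midpoint of pH 2.0 and pH 6.0 as a bar and a dotted line joining the 2 extremes. The alternative oxidase stands 1.96-fold over its midpoint, the citrate exporter 1.59-fold below it, and the rarer of the 2 malate synthase loci, YALI0D19140g, is lowest at pH 4.0, with 6.62 to 10.3 CPM.

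The citrate exporter and Rim101 were nearer to their pH 2.0 level at pH 4.0. The exporter YALI0D20196g, which carries citrate across the plasma membrane, was at 420, 469 and 614 CPM at pH 2.0, at 790, 1016 and 542 at pH 4.0, and at 3122, 2938 and 2739 at pH 6.0. The pH 4.0 libraries overlapped those of pH 2.0 and were 1.59-fold below the midpoint (log2 -0.67, SE 0.18, adjusted p = 0.0102), or -0.43 without pH 4.0 replicate C. Rim101, YALI0B13640g, was at 184, 178 and 180 CPM at pH 2.0, at 276, 251 and 258 at pH 4.0, and at 685, 763 and 766 at pH 6.0. Its groups did not overlap, and pH 4.0 lay 0.261 of the way to pH 6.0 (log2 departure -0.48, SE 0.06, adjusted p = 3.14e-04). YALI0B05654g, a secreted acid protease, was at 9.74, 6.17 and 11.03 CPM at pH 2.0, at 61.6, 78.4 and 44.2 at pH 4.0, and at 724, 763 and 485 at pH 6.0. Its departure was not called on the log2 scale (-0.38, SE 0.21, adjusted p = 0.156), and it was called with a pseudocount of 5 (-0.55, adjusted p = 0.0350) and on the linear scale (adjusted p = 0.00492). Of the 3 tested genes of the ambient pH response and cell surface, Rim101 was the one called under the deposited scaling. The plasma membrane proton ATPase YALI0B22682g was not called (-0.10, adjusted p = 0.225), but was called below under equal totals (-0.20, adjusted p = 0.0418).

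Of 17 genes of the tricarboxylic acid (TCA) and glyoxylate cycles and anaplerosis, 8 were called above the midpoint and 2 below. The share called was 58.8%, against 50.4% of all genes tested (24.3% above and 26.1% below). Their median departure was 0.09 against -0.02 for all genes tested. Without pH 4.0 replicate A, 3 were above and 2 below, and without pH 6.0 replicate B, 5 and 2. Both subunits of NAD-dependent isocitrate dehydrogenase, the TCA cycle step after aconitase, were highest at pH 4.0. YALI0E05137g was at 401, 379 and 361 CPM at pH 2.0, at 637, 563 and 547 at pH 4.0, and at 437, 409 and 409 at pH 6.0 (log2 departure 0.54, SE 0.07, adjusted p = 3.07e-04). YALI0D06303g, the other subunit, had 398 to 471 CPM at pH 4.0 against 318 to 357 at pH 2.0 and 326 to 373 at pH 6.0 (log2 0.30, SE 0.07, adjusted p = 0.00679). In both genes all 3 pH 4.0 libraries lay above the other 6, while the difference between the extremes was not called (log2 0.14 and 0.06, adjusted p = 0.127 and 0.546).

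The other 6 members above were aconitase, NADP-dependent isocitrate dehydrogenase, fumarase, malate dehydrogenase, isocitrate lyase and phosphoenolpyruvate carboxykinase. The carboxykinase, which makes phosphoenolpyruvate from oxaloacetate, departed most of these (YALI0C16995g, log2 0.62, SE 0.16, adjusted p = 0.00989), and its call was lost without pH 4.0 replicate A (0.41, adjusted p = 0.0517). The departures of the remaining 5 were 0.17 to 0.31, and all 5 calls were lost under equal totals (0.07 to 0.21). Under quantile normalization aconitase kept its call (0.25). Those of NADP-dependent isocitrate dehydrogenase (0.16), fumarase (0.09), malate dehydrogenase (0.13) and isocitrate lyase (0.10) were lost. On the linear scale the calls of aconitase and isocitrate lyase were lost. Isocitrate lyase YALI0C16885g, which splits isocitrate in the glyoxylate cycle, was not called in 6 of the 9 fits that left out a library and had a departure of 0.14 without pH 4.0 A (0.31 with it). In the other 5 of these it was 0.32 without pH 2.0 A, 0.29 without pH 2.0 B, 0.31 without pH 2.0 C, 0.30 without pH 6.0 B and 0.27 without pH 6.0 C. Aconitase YALI0D09361g also lost its call in 6 (0.13 to 0.20, lowest without pH 4.0 A, and also without pH 2.0 A or C, pH 4.0 B, or pH 6.0 A or B) and with the letters as a block (adjusted p = 0.0932). Fumarase YALI0C06776g lost it in 4 (without pH 4.0 A or B, or pH 6.0 A or B, 0.15 to 0.18), and malate dehydrogenase YALI0D16753g without pH 4.0 A (0.16). The other malate dehydrogenase locus, YALI0E14190g, was not called (0.09, adjusted p = 0.367).

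The 2 members called below were lowest at pH 4.0. YALI0D19140g, the rarer of 2 loci for malate synthase, a glyoxylate cycle enzyme, was at 18.1, 13.1 and 13.6 CPM at pH 2.0, at 8.34, 10.3 and 6.62 at pH 4.0, and at 23.1, 26.2 and 24.7 at pH 6.0 (log2 departure -1.12, SE 0.14, adjusted p = 3.14e-04). Pyruvate carboxylase YALI0C24101g, which refills oxaloacetate, was at 3603, 3552 and 4000 CPM at pH 2.0, at 3246, 3329 and 3124 at pH 4.0, and at 4315, 4694 and 4336 at pH 6.0 (log2 -0.33, SE 0.07, adjusted p = 0.00349). Neither gene's pH 4.0 libraries overlapped those of an extreme. For the carboxylase the step from pH 2.0 to pH 4.0 was not called by itself (log2 -0.20, adjusted p = 0.0501). The other malate synthase locus, YALI0E15708g, was far more abundant and did not share the low at pH 4.0. It was at 1283, 1406 and 1405 CPM at pH 2.0, at 1625, 1575 and 1501 at pH 4.0, and at 1920, 1959 and 1928 at pH 6.0, and its departure was not called (log2 -0.05, SE 0.06, adjusted p = 0.486). It was called below under equal totals (-0.15, adjusted p = 0.0396) and quantile normalization (-0.29, adjusted p = 0.0025). Under equal totals 3 genes of the list were above and 5 below, and under quantile normalization 4 and 5. Of all 6165 genes tested, equal totals called 1001 above and 2074 below, and quantile normalization 1513 and 1344.

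ATP-citrate lyase makes cytosolic acetyl-CoA from citrate. Its subunit YALI0E34793g was highest at pH 4.0, at 746 to 822 CPM against 650 to 742 at pH 2.0 and 609 to 701 at pH 6.0 (log2 departure 0.22, SE 0.07, adjusted p = 0.0214). It was no longer called without pH 4.0 replicate A (0.21) or C (0.19), under equal totals (0.12) and under quantile normalization (0.11). Its step from pH 2.0 to pH 4.0 was not called by itself (log2 0.18, adjusted p = 0.0651). The remaining 3 of the 5 genes of citrate transport and cleavage were not called, with departures of 0.12 to 0.25. Of the 5, 40% were called, against 50.4% of all genes tested.

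In glycolysis 3 of 11 genes were above the midpoint and none of the 11 was below it under the deposited scaling. The share called was 27.3%, against 50.4% of all genes tested (24.3% above and 26.1% below). Glucokinase YALI0E15488g, which phosphorylates glucose on entry to the pathway, was at 803, 895 and 876 CPM at pH 2.0, at 1001, 1014 and 865 at pH 4.0, and at 648, 683 and 686 at pH 6.0. Its pH 4.0 libraries overlapped those of pH 2.0 and were all above those of pH 6.0 (log2 departure 0.34, SE 0.07, adjusted p = 0.00304). The lower-pathway enzymes phosphoglycerate kinase YALI0D12400g and phosphoglycerate mutase YALI0B02728g had a pH 4.0 level 0.868 and 0.832 of the way from pH 2.0 to pH 6.0. Their departures were 0.30 (SE 0.08, adjusted p = 0.0138) and 0.29 (SE 0.06, adjusted p = 0.00365). Both calls were lost under quantile normalization (0.08 and 0.09), and that of the kinase also under equal totals (0.20) and without pH 4.0 replicate A (0.25). Under both of those scalings 1 member of the list was called below. Of all 6165 genes tested, 2074 were called below under equal totals and 1344 under quantile normalization.

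Hexose transporters take up glucose and fructose. Of 5 tested, 2 were below the midpoint in different ways (40% called, against 50.4% of all genes tested). YALI0D01111g was at 13.9, 21.6 and 27.6 CPM at pH 2.0, at 31.1, 39.9 and 25.8 at pH 4.0, and at 169, 158 and 138 at pH 6.0. Both steps were called, and the second was the larger, 2.24 against 0.62 on the log2 scale (log2 departure -0.81, SE 0.19, adjusted p = 0.00576). YALI0C06424g was at 178, 173 and 275 CPM at pH 2.0, at 53.0, 71.5 and 66.5 at pH 4.0, and at 33.1, 51.5 and 38.3 at pH 6.0. It fell by 1.67 over the first step and by 0.64 over the second on the log2 scale (log2 departure -0.52, SE 0.17, adjusted p = 0.0300), a call lost without pH 4.0 replicate A (-0.39) or C (-0.55) or pH 6.0 replicate B (-0.43). Another transporter, YALI0C16522g, was at 18.01, 11.7 and 11.98 CPM at pH 2.0, at 2.98, 3.97 and 2.49 at pH 4.0, and at 0.178, 0.199 and 0.137 at pH 6.0, where it was near the worth of 3 reads (0.169 to 0.234 CPM). It was not called on the log2(CPM + 1) scale (-0.01, adjusted p = 0.958). Tests of the recovered reads called it above the midpoint (1.01, adjusted p = 0.0149 with edgeR and 1.04, adjusted p = 0.00828 with DESeq2), and it was called below on the linear scale (adjusted p = 0.0352) and with a pseudocount of 5 (-0.27, adjusted p = 0.0478).

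The pentose phosphate pathway is a source of NADPH and of pentose sugars. Of 9 genes of that pathway and of polyol metabolism, 3 were above the midpoint and 1 below (44.4% called, against 50.4% of all genes tested). The counts were 1 and 1 without pH 4.0 replicate A, and 3 and 2 without pH 2.0 replicate A. Mannitol dehydrogenase YALI0B16192g, which interconverts mannitol and fructose, was the one below, at 30.8, 37.9 and 33.7 CPM at pH 2.0, at 98.3, 99.7 and 121 at pH 4.0, and at 562, 608 and 673 at pH 6.0. It rose over both steps without overlap, and more over the second (log2 departure -0.46, SE 0.09, adjusted p = 0.00276). The 3 above were 6-phosphogluconolactonase YALI0E11671g, the second enzyme of the pathway (log2 0.20, SE 0.05, adjusted p = 0.0124), ribose-5-phosphate isomerase YALI0B06941g (0.20, SE 0.06, adjusted p = 0.0188) and glucose-6-phosphate dehydrogenase YALI0E22649g, the entry enzyme (0.24, SE 0.08, adjusted p = 0.0239). All 3 calls were lost under equal totals (0.10, 0.10 and 0.14), when 3 members of the list were called below. Under quantile normalization the dehydrogenase was at 0.02 (adjusted p = 0.826) and the isomerase at 0.16 (adjusted p = 0.0530), neither called, and the list had 1 above and 3 below. Over all 6165 genes tested, 1001 were called above and 2074 below under equal totals, and 1513 and 1344 under quantile normalization. Leaving out pH 4.0 replicate A (0.17) or replicate B (0.18) also ended the isomerase call. That of the dehydrogenase ended without any 1 of the pH 4.0 libraries (A 0.24, B 0.25, C 0.22), and without pH 6.0 replicate A (0.22) or B (0.23). Among 5 genes of erythritol use (20% called), the transcription factor of that gene cluster, YALI0F01562g, was called below. It had 20.03 to 26.1 CPM at pH 4.0 against 20.8 to 23.9 at pH 2.0 and 37.2 to 43.3 at pH 6.0 (log2 -0.39, SE 0.10, adjusted p = 0.00903). Its call was lost under quantile normalization (-0.24, adjusted p = 0.0646).

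In lipid synthesis the enzymes of the first acylations of glycerol phosphate had levels at pH 4.0 that overlapped those of pH 6.0, while a final acyltransferase was lowest at pH 4.0. Of 10 genes of glycerolipid synthesis and storage, 2 were above the midpoint and 3 below (50% called, against 50.4% of all genes tested). YALI0C00209g, the glycerol-3-phosphate acyltransferase that adds the first acyl chain, was at 246, 282 and 272 CPM at pH 2.0, at 733, 538 and 544 at pH 4.0, and at 617, 513 and 518 at pH 6.0 (log2 departure 0.65, SE 0.11, adjusted p = 0.00110). Lysophosphatidate acyltransferase YALI0E18964g, the next, had 316 to 331 CPM at pH 4.0 against 201 to 232 at pH 2.0 and 312 to 337 at pH 6.0 (log2 0.29, SE 0.06, adjusted p = 0.00358). In both genes the pH 4.0 and pH 6.0 libraries overlapped and all were above those of pH 2.0.

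Diacylglycerol acyltransferase of the DGAT2 family, YALI0E32769g, makes triacylglycerol from diacylglycerol. It was at 140, 138 and 153 CPM at pH 2.0, at 115, 122 and 122 at pH 4.0, and at 182, 202 and 179 at pH 6.0. All 3 pH 4.0 libraries were below the other 6 (log2 departure -0.45, SE 0.06, adjusted p = 5.12e-04). Glycerol kinase YALI0F00484g, which makes glycerol phosphate from glycerol, was also lowest at pH 4.0, at 359 to 416 CPM against 459 to 509 at pH 2.0 and 436 to 490 at pH 6.0 (log2 -0.28, SE 0.07, adjusted p = 0.00665). The third member below was the DGAT1-family acyltransferase YALI0D07986g, whose pH 4.0 mean of 168 ± 14.4 CPM stood beside 179 ± 17.2 at pH 6.0 and 220 ± 9.31 at pH 2.0 (SD, n = 3 each; log2 departure -0.24, SE 0.08, adjusted p = 0.0230). That call was lost without pH 4.0 replicate B (-0.19) or C (-0.22).

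Among the 8 loci for making and desaturating fatty acids, 1 was above, 1 was below and 6 were not called. The share called was 25%, against 50.4% of all genes tested. Malic enzyme YALI0E18634g, which turns malate into pyruvate, had 276 to 291 CPM at pH 4.0 against 166 to 199 at pH 2.0 and 270 to 339 at pH 6.0 (log2 departure 0.27, SE 0.08, adjusted p = 0.0192). Its call was lost without pH 4.0 replicate C (0.24), under equal totals (0.17), under quantile normalization (0.21) and on the linear scale. The fatty acid synthase subunit YALI0B15059g was nearer to its pH 2.0 level, with 1282, 1288 and 1572 CPM at pH 4.0 against 1125 to 1360 at pH 2.0 and 1907 to 2422 at pH 6.0 (log2 -0.27, SE 0.10, adjusted p = 0.0470). Of the 9 fits that left out a library, 6 lost that call, namely those without pH 2.0 A (-0.26), pH 2.0 C (-0.24), pH 4.0 A (-0.22), pH 4.0 B (-0.22), pH 6.0 A (-0.25) and pH 6.0 B (-0.24). It was lost under edgeR too. The other synthase subunit, YALI0B19382g, was not called (-0.09, adjusted p = 0.403), but was called below under quantile normalization (-0.26, adjusted p = 0.0478).

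Of 5 lipases, 2 were called below (40% called, against 50.4% of all genes tested) and both were lowest at pH 4.0. The lipid body lipase YALI0F10010g, which frees fatty acids from stored triacylglycerol, was at 148, 134 and 131 CPM at pH 2.0, at 96.7, 112 and 104 at pH 4.0, and at 126, 118 and 114 at pH 6.0 (log2 departure -0.29, SE 0.07, adjusted p = 0.00582). Its step from pH 4.0 to pH 6.0 was not called by itself (log2 0.19, adjusted p = 0.0648). The other lipid body lipase, YALI0D17534g, had no called departure (-0.04, adjusted p = 0.625). The lipase YALI0B09361g was rare throughout, at 3.43, 3.93 and 3.71 CPM at pH 2.0, at 1.71, 2.25 and 1.56 at pH 4.0, and at 11.5, 15.02 and 8.28 at pH 6.0 (log2 -1.43, SE 0.16, adjusted p = 2.29e-04). All these values were above the 0.169 to 0.234 CPM that 3 reads, taken as the floor, were worth.

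Of 12 genes of beta-oxidation, 4 were below the midpoint and none of the 12 was called above. The share called was 33.3%, against 50.4% of all genes tested (24.3% above and 26.1% below). Leaving out pH 4.0 C gave 3 below and 3 above. Leaving out pH 4.0 A, pH 6.0 B or pH 6.0 C gave 2 below, and leaving out pH 2.0 B gave 2 below and 1 above. The half-transporters of the peroxisome that import activated fatty acids were both lowest at pH 4.0. YALI0D04246g was at 168, 140 and 141 CPM at pH 2.0, at 68.2, 89.8 and 87.9 at pH 4.0, and at 109, 105 and 98.4 at pH 6.0 (log2 departure -0.61, SE 0.10, adjusted p = 0.00100). Its partner YALI0A06655g had 243 to 270 CPM at pH 4.0 against 296 to 310 at pH 2.0 and 270 to 287 at pH 6.0 (log2 -0.16, SE 0.06, adjusted p = 0.0325), with a narrow gap of the pH 4.0 libraries to those of pH 6.0. Fits without pH 2.0 A (-0.16), pH 2.0 B (-0.16), pH 4.0 A (-0.12), pH 6.0 B (-0.15) or pH 6.0 C (-0.17) lost the partner's call. The partner's step from pH 4.0 to pH 6.0 was not called by itself (log2 0.10, adjusted p = 0.231).

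Acyl-CoA oxidases open each round of beta-oxidation, and 2 of the 6 were called, both below (33.3%, against 50.4% of all genes tested). YALI0E06567g was at 309, 335 and 344 CPM at pH 2.0, at 166, 201 and 157 at pH 4.0, and at 134, 151 and 144 at pH 6.0. Most of its fall lay in the first step (position 0.765, log2 departure -0.32, SE 0.08, adjusted p = 0.01). YALI0E27654g had means of 374 ± 30.2, 174 ± 26.8 and 112 ± 2.98 CPM in order of pH (SD, n = 3 each; log2 departure -0.24, SE 0.09, adjusted p = 0.0486). Fits without pH 2.0 B (-0.21), pH 2.0 C (-0.26), pH 4.0 A (-0.27), pH 4.0 C (-0.12), pH 6.0 A (-0.25), pH 6.0 B (-0.23) or pH 6.0 C (-0.25) lost the call of the latter, as did edgeR (adjusted p = 0.0620) and DESeq2 (adjusted p = 0.0551).

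Peroxins assemble the peroxisome and import its enzymes. Of 10 peroxins, 6 were below the midpoint, 1 was above and 3 were not called. The share called was 70%, against 50.4% of all genes tested (24.3% above and 26.1% below). Their median departure was -0.22 against -0.02 for all genes. Without pH 4.0 replicate A, 3 were below and 1 above. YALI0D26642g was at 22.2, 21.8 and 24.6 CPM at pH 2.0, at 7.74, 11.1 and 7.71 at pH 4.0, and at 11.4, 10.2 and 8.97 at pH 6.0. The pH 4.0 and pH 6.0 libraries overlapped and all were below those of pH 2.0 (log2 departure -0.74, SE 0.12, adjusted p = 0.00110). YALI0C18689g was lowest at pH 4.0, at 30.5 to 35.7 CPM against 43.6 to 49.5 at pH 2.0 and 36.4 to 41.7 at pH 6.0 (log2 -0.35, SE 0.08, adjusted p = 0.00469). YALI0B22660g was the one above, and was highest at pH 4.0, at 217 to 238 CPM against 174 to 191 at pH 2.0 and 184 to 199 at pH 6.0 (log2 0.28, SE 0.06, adjusted p = 0.00334). Under equal totals 7 peroxins were below and 1 above, and under quantile normalization 6 and 1. For all 6165 genes tested these counts were 2074 and 1001 under equal totals, and 1344 and 1513 under quantile normalization.

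Cytochromes P450 of the alkane family hydroxylate the end of an alkane or fatty acid chain. Of 11 tested, 3 were below the midpoint and none of the 11 was above under the deposited scaling. The share called was 27.3%, against 50.4% of all genes tested. Quantile normalization called 5 below and 1 above, beside 1344 below and 1513 above of all 6165 genes tested. Leaving out pH 4.0 C gave 1 below and 3 above, and leaving out either pH 4.0 A or pH 6.0 B gave 1 below. YALI0F01320g was at 6651, 6053 and 6647 CPM at pH 2.0, at 3887, 4585 and 4105 at pH 4.0, and at 3683, 3851 and 3834 at pH 6.0 (log2 departure -0.24, SE 0.08, adjusted p = 0.0230). Its call was lost without pH 4.0 replicate A (-0.19) or C (-0.23) or pH 6.0 replicate B (-0.23). YALI0B01848g had 162 to 211 CPM at pH 4.0 against 247 to 282 at pH 2.0 and 200 to 216 at pH 6.0 (log2 -0.36, SE 0.08, adjusted p = 0.00557). The third, YALI0E25982g, had a departure of -0.31 (SE 0.11, adjusted p = 0.0400) that rested on single libraries. It was -0.19 without pH 4.0 replicate C and -0.47 without replicate B. Of the 9 fits that left out a library, 7 lost the call, namely those without pH 2.0 B (-0.31), pH 2.0 C (-0.29), pH 4.0 A (-0.27), pH 4.0 C, pH 6.0 A (-0.33), pH 6.0 B (-0.30) and pH 6.0 C (-0.30). It was lost with edgeR as well.

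The next enzymes of the same route oxidize the alcohol and then the aldehyde to a fatty acid. Of 8 tested, 2 were below the midpoint (25% called, against 50.4% of all genes tested). Fatty alcohol oxidase YALI0B14014g was at 2618, 2166 and 2275 CPM at pH 2.0, at 1103, 1297 and 1193 at pH 4.0, and at 985, 1046 and 904 at pH 6.0. The groups did not overlap, and pH 4.0 lay 0.770 of the way to pH 6.0 (log2 departure -0.34, SE 0.08, adjusted p = 0.00706). The fatty aldehyde dehydrogenase YALI0F23793g had 1214 to 1302 CPM at pH 4.0 against 1478 to 1803 at pH 2.0 and 1258 to 1509 at pH 6.0 (log2 -0.27, SE 0.08, adjusted p = 0.0174). Leaving out pH 4.0 A (-0.26) or pH 4.0 C (-0.26) ended that call.

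**Figure D4:**
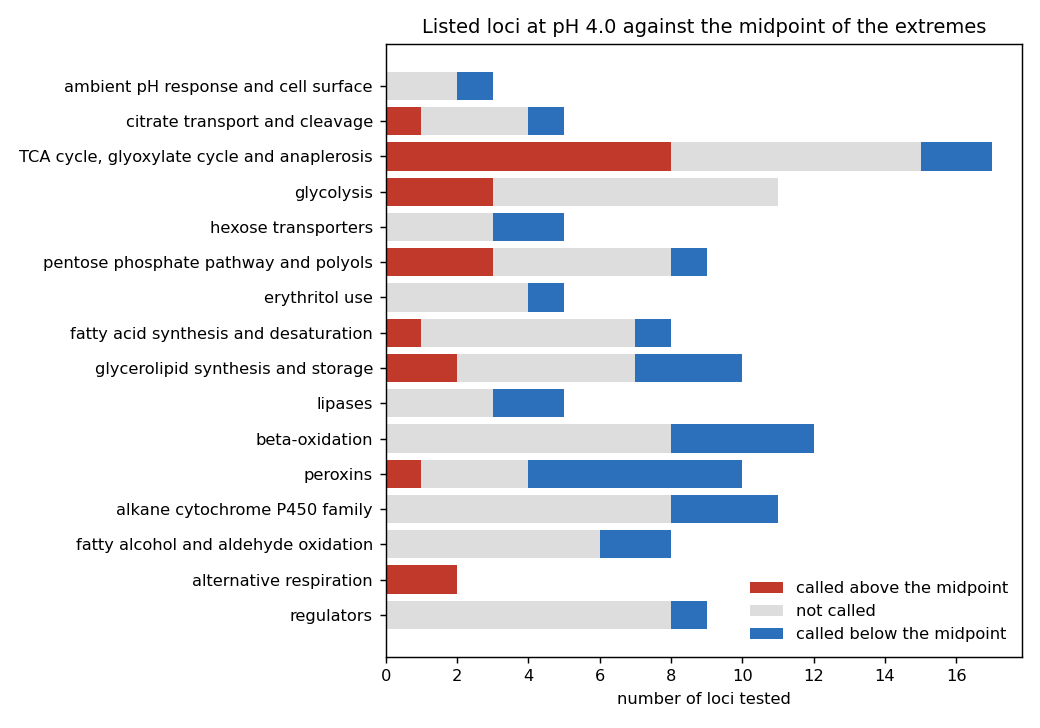
Number of loci tested in each of 16 lists, split into loci called above the midpoint, not called and called below. The list of the TCA and glyoxylate cycles has 8 above and 2 below, and the peroxins have 1 above and 6 below. Over all genes tested, 24.3% were called above and 26.1% below.

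Of 9 regulators tested, YALI0B21582g, a zinc finger protein that regulates hyphal growth, was the one called, below the midpoint, at 36.8, 38.0 and 43.4 CPM at pH 2.0, at 32.8, 30.6 and 20.7 at pH 4.0, and at 35.0, 38.8 and 30.8 at pH 6.0. Its pH 4.0 and pH 6.0 libraries overlapped (log2 departure -0.41, SE 0.14, adjusted p = 0.0290). The call was lost without pH 2.0 replicate C (-0.38), pH 4.0 replicate C (-0.21) or pH 6.0 replicate A (-0.41) or B (-0.37), and under quantile normalization (-0.34). The share of regulators called was 11.1%, against 50.4% of all genes tested. Under equal totals 6 of the 9 were called below, as were 2074 of all 6165 genes tested.

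Over the 130 listed loci tested, 21 were called above the midpoint and 30 below (39.2% called, against 50.4% of all genes), with a median departure of -0.01. By pattern, 4 had all pH 4.0 libraries above the other 6 and 9 had them all below. Another 13 were near a higher pH 6.0 level, 4 near a higher pH 2.0 level, 7 near a lower pH 2.0 level and 14 near a lower pH 6.0 level. Without pH 4.0 replicate A, 12 listed loci were called above and 20 below. Under equal totals the counts were 10 above and 45 below, and under quantile normalization 13 and 39. Over all 6165 genes tested they were 1001 and 2074 under equal totals, and 1513 and 1344 under quantile normalization.

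**Figure D5:**
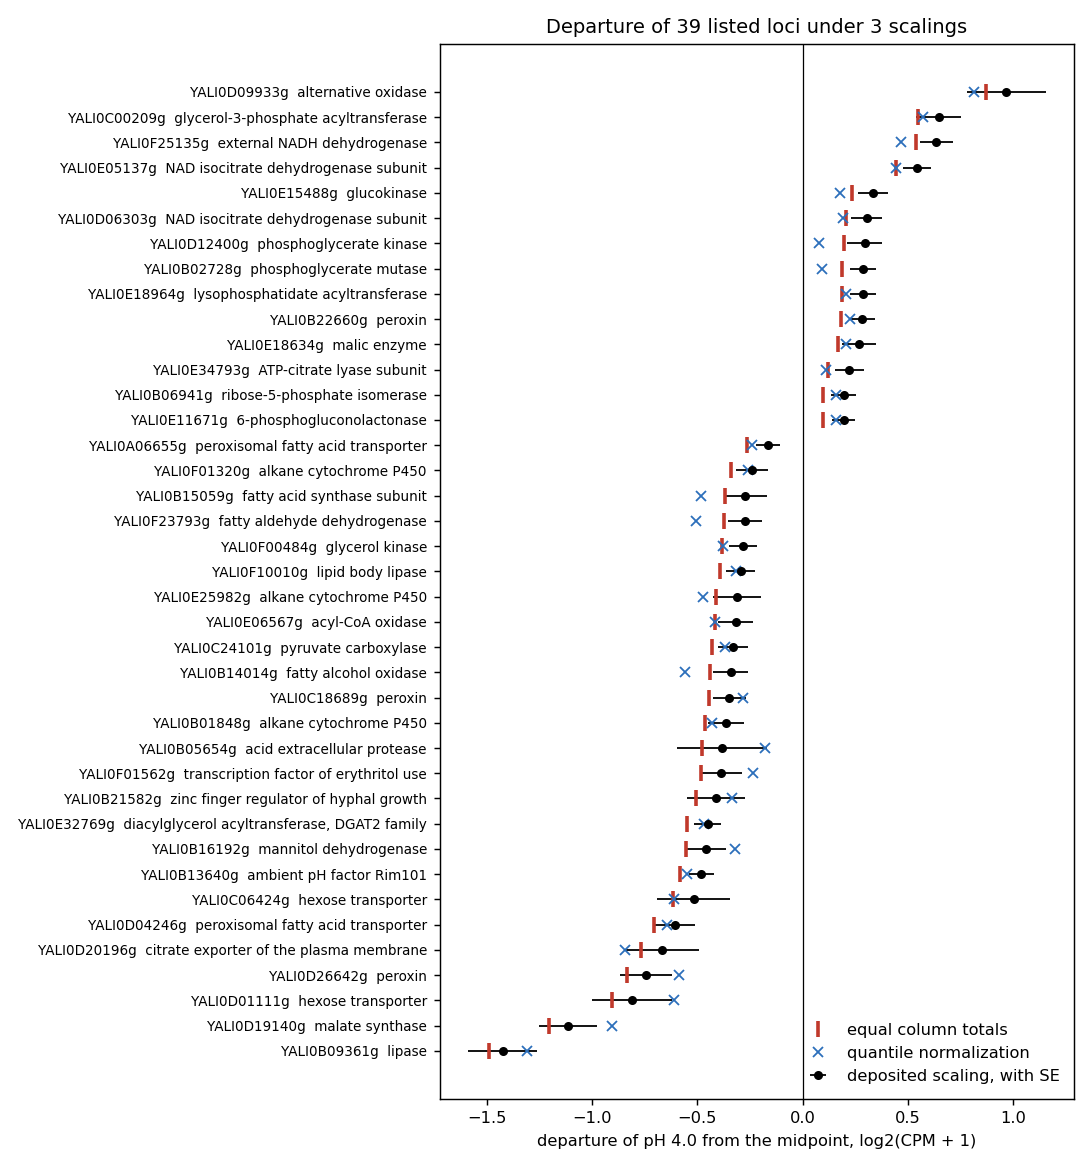
Departure of pH 4.0 from the midpoint on the log2(CPM + 1) scale for 39 listed loci under the deposited scaling (points, with SE as bars), equal column totals and quantile normalization. The alternative oxidase is farthest above at 0.97 and the lipase YALI0B09361g farthest below at -1.43, and the equal-totals marks lie to the left of the points throughout.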

How the data were processed

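The authors deposited 1 table of 6170 rows by 9 libraries. They hold a normalized signal per the file headers, CPM (counts per 1e+06 reads) over edgeR's effective library size. The tools named, per the submitters' processing notes, were edgeR, HTSeq, TopHat2 2.0.10, Trimmomatic 0.30 and bcl2fastq 1.8.4. Settings, genome build and use of strand in counting are not given in the sources, so values of antisense, overlapping or near-identical genes are uncertain. The reference table, of 8689 genes, matched 0 identifiers. Reads were recovered from the value of 1 read (0.0563 to 0.0779 CPM), and 100% of entries came out whole within 0.01 reads.

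The filter of 1 CPM in 3 or more libraries kept 6165 genes and removed 5. Tests used log2(CPM + 1), a scale that understates changes of low genes, with limma 3.58.1 (R 4.3.3) and a mean-variance trend. One fit over 9 libraries gave 1 mean per pH and 6 residual degrees of freedom; the contrast weighted pH 4.0 by 1 and each extreme by -0.5. Adjusted p-values are Benjamini-Hochberg over all genes tested, two-sided, called under 0.05. The fit was tested on simulated data. Alternatives included tests of the recovered reads with DESeq2 1.42.0 and edgeR 4.0.16.

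Members and the 133 loci of 16 lists (3 have no row here: YALI0F31889g, YALI0C08943g, YALI0B20702g) were chosen with earlier results of these data known. Loci named are up to 3 called members per list by adjusted p, called members whose pH 4.0 libraries lie outside the other 6, 5 key loci, and the 2 extremes each way among unlisted genes reaching 10 CPM. YALI0E22649g, YALI0D07986g and YALI0E27654g, which complete a count, were added after their values were seen. So were the proton ATPase YALI0B22682g and loci for the tricarboxylic acid and glyoxylate cycles and hexose transport (YALI0C16995g, YALI0D09361g, YALI0F04095g, YALI0C06776g, YALI0D16753g, YALI0C16885g, YALI0E15708g, YALI0C16522g). The same holds for YALI0D24431g, YALI0E14190g, YALI0B19382g and YALI0D17534g, other loci of a role already described.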

Additional observations from a re-analysis of the deposited data

How the results depend on the processing

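Across 22 alternatives the number of genes called ranged from 1955, at an adjusted p under 0.01 (948 above, 1007 below), to 3132, with DESeq2 on the recovered reads; edgeR called 3058. Of the 3108 genes called, 2610 were also called in the same direction under equal column totals, 2510 under quantile normalization, 2673 with the midpoint on a linear scale, where 8 were called in the opposite direction, and 2236 without pH 4.0 replicate A. Leaving out each library gave 2282 to 3060 calls, 1105 to 1481 above and 1177 to 1579 below, and 145 to 204 genes with a departure of at least 1.

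Of the 130 listed loci, 51 were called, and 32 to 49 without each library (12 to 24 above, 20 to 29 below). At an adjusted p under 0.01, 26 were called, 10 above and 16 below. The number above was 10 under equal column totals and 13 under quantile normalization, against 1001 and 1513 of all 6165 genes tested. The loci described above as called are a different set, also of 51. They include the loci outside the lists and leave out some called peroxins. Of the fits that left out a library, the one without pH 4.0 replicate A lost the most of their calls (16). The cause was not tested.

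Of the 51 described loci, 40 kept direction and call under equal column totals, 39 under quantile normalization, 50 with DESeq2 and 48 with edgeR. YALI0D19338g reversed with the midpoint on a linear scale (-0.71, as a share of its mean level), which follows from the arithmetic midpoint lying far above the log midpoint. The rare transporter YALI0C16522g, not called at -0.01, was called above with edgeR (1.01) and DESeq2 (1.04); the cause was not tested. The letters A, B and C did not pair the samples over all genes: deviations of same-letter libraries correlated at r = -0.204 to 0.269. With the letters as a replicate block 3036 genes were called. Of the 51 described loci, the calls of YALI0B15059g (adjusted p = 0.0767), YALI0F01320g (0.0502) and YALI0D09361g (0.0932) were lost.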

Other observations

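The 16 rows whose identifiers do not carry the YALI0 prefix but begin with YalifM had departures of -0.06 to 0.83 on the log2 scale, with a median of 0.68 against -0.02 for all genes tested. They varied widely between replicates (SE of the departure 0.22 to 0.38). By limma 4 were called above the midpoint (25%, against 24.3% of all genes tested) and none of the 16 below. Under equal totals 2 were called above, under quantile normalization 8 and on the linear scale 0. Of all 6165 genes tested, 1001, 1513 and 1208 were called above in the same order. In the YalifM rows replicate A was above replicate C in 16 of 16 at pH 2.0, in 16 at pH 4.0 and in 15 at pH 6.0. Replicate B had no such order against C at pH 4.0. It was below C in some rows (YalifMp03, 24.77 against 28.82 CPM) and above it in others (YalifMr30, 1366 against 1345 CPM). Rows of the same library are not independent, so these counts are not separate observations of the letters. With the letters as a replicate block, 10 of the 16 rows were called above and 0 below. That fit called 1470 of the 6165 genes tested above and 1566 below. This group was looked at after the data had been seen.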
